A study of Mus musculus with 10 samples.

Results

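The genes described here are 35 genes of lipid metabolism, listed by name and looked up in a table of 17658 genes, and all 35 were found. They comprise 17 enzymes of cholesterol synthesis, 6 regulators and carriers of sterol, 8 enzymes of fatty acid synthesis and desaturation, and 4 genes of cholesterol efflux and of the liver X receptor (LXR) pathway. Of the 35, 31 reached an average of 1 FPKM across the 10 libraries and were tested. Tm7sf2, Elovl6, Fads1 and Fads2 lay under that level, and their values are given without a test. FPKM scale fragment counts to transcript length and library size, so levels can be compared between genes.

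Polyadenylated RNA was sequenced from B cells of C57BL/6 mice at 10 weeks of age. The cells came from spleen and lymph node and were enriched by magnetic removal of other cells. The mice were labelled Nr4a1+/+ (wild type) or Nr4a1-/-; Nr4a1 encodes the orphan nuclear receptor Nur77, and the labels name no Cre and no other allele. Each genotype gave 1 unstimulated library and 4 libraries, lettered A to D, of cells treated for 2 hours with anti-IgM at 10 µg/mL; the antibody crosslinks antigen receptors on the B cell surface. The labels name no agent for the unstimulated cells and do not say whether they were cultured, so anti-IgM and time in culture cannot be told apart. They do not say either whether letters A to D are separate mice, and p-values then measure the spread between these libraries only.

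Cholesterol is built from acetyl-CoA through the mevalonate pathway, squalene and lanosterol. When sterol in the endoplasmic reticulum is scarce, the carrier Scap takes the membrane-bound factor SREBP2 to the Golgi, where it is cut free and switches on sterol synthesis genes, whereas INSIG proteins hold Scap back when sterol is plentiful. Excess sterol is converted to oxysterols that activate LXR, which induces the exporters Abca1 and Abcg1 and also the ubiquitin ligase Mylip. Fatty acids are made from citrate by Acly, acetyl-CoA carboxylase and fatty acid synthase under SREBP1, and lymphocytes that are activated to grow use both routes to build membrane.

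The libraries were checked first. Nr4a1 did not separate the genotypes: it stood at 126 and 126 FPKM in the unstimulated pair, at 744 to 856 FPKM in stimulated wild type and at 660.2 to 759.96 FPKM in the stimulated libraries labelled knockout, and the stimulated groups overlapped, although the level was lower in the latter (log2 difference -0.20, limma adjusted p = 0.0432). These libraries are therefore called "labelled knockout" throughout; which part of the gene the allele removes is not in the labels. Relative sequencing depth was 1.01 ± 0.0485 (SD, n = 4) in stimulated wild type and 1.02 ± 0.0365 (SD, n = 4) in their labelled knockout counterparts (exact permutation p = 0.8, two-sided). In the unstimulated pair, wild type first, it was 0.906 and 0.992. The FPKM of all genes summed to 674961 and 595500 in that pair, and to 557214 to 571784 in the stimulated libraries. All 6 B cell markers were present, with summed levels of 1302 to 1427 FPKM in the 8 stimulated libraries. T cell markers and NK cell markers, summed separately, each came to at most 1.16 FPKM in each library. The 12 myeloid markers summed to 66.8 to 169 FPKM in stimulated wild type and 48.0 to 130 FPKM in the libraries labelled knockout, a spread set mostly by Lyz2 (wild type 31.9, 115, 27.1 and 26.6, labelled knockout 52.96, 82.6, 15.8 and 17.4 FPKM for letters A to D). In the unstimulated pair, wild type first, erythroid markers summed to 25.5 and 6.21 FPKM and platelet markers to 22.1 and 10.1 FPKM. Myeloid markers summed to 108 and 134 FPKM and plasma cell markers to 45.8 and 56.3 FPKM there. The part of these differences in the anti-IgM changes was not tested. In RNA of mixed cells, fewer cells of a type and less RNA per cell cannot be told apart.

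After anti-IgM, the sterol synthesis pathway did not move as a block. Sqle, Cyp51, Idi1, Hmgcs1 and the regulators Insig1 and Srebf2 rose, Pmvk, Ebp and Insig2 fell, fatty acid synthase (Fasn) rose, and the exporters Abca1 and Abcg1 fell with Mylip. Of the 31 tested members, 27 were called (limma on the 10 libraries, genotype included as a term, Benjamini-Hochberg adjusted p under 0.05), 16 higher and 11 lower, against 78.9% of all 10225 genes tested (31.2% called higher and 47.7% lower). The members' 27 of 31 is near that background, so the sizes of the changes are given throughout. At a log2 change of at least 1, 7 members were called higher (7.94% of all genes) and 3 lower (12.4% of all genes; 5 members without the unstimulated wild-type library). All log2 changes are on the log2(FPKM + 1) scale, on which genes near 1 FPKM show less than their true fold. The median change was 0.19 over the 31 members and -0.17 over all genes tested, and no called member changed direction in an alternative analysis. The 6 B cell markers summed to 4032 and 3804 FPKM before stimulation and to 1302 to 1427 FPKM after it, each of the 6 called lower, and the part of such wide shifts in the members' changes was not tested.

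**Figure D1:**
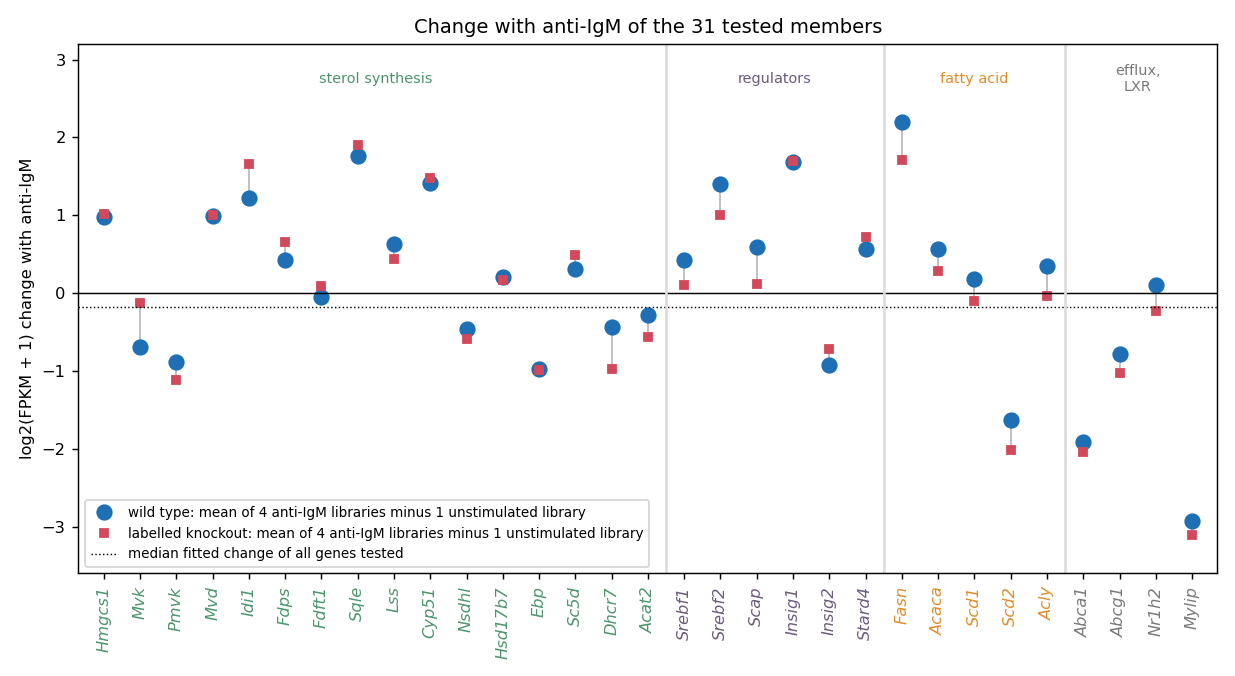
Change with anti-IgM of each tested member (vertical axis, log2(FPKM + 1)) in wild type (circles) and in the libraries labelled knockout (squares), each the mean of 4 stimulated libraries minus 1 unstimulated library, by branch. The largest rises are those of Fasn, Sqle and Insig1 and the largest falls those of Mylip, Abca1 and Scd2, in both genotypes; the dotted line is the median of all genes at -0.17.

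In the sterol branch 9 of 16 tested enzymes were called higher and 6 lower, against 31.2% and 47.7% of all genes. The median log2 change was 0.30. The largest rise was that of Sqle, squalene epoxidase, which introduces the first oxygen into squalene and is a control point of the pathway. Unstimulated Sqle stood at 6.5 FPKM (wild type) and 6.32 FPKM (labelled knockout). After anti-IgM it reached 27.1, 24.1, 24.5 and 22.1 FPKM in wild-type libraries A to D compared with 25.7, 26.9, 26.6 and 26.45 FPKM in the labelled knockout libraries A to D. All 8 stimulated libraries were above both unstimulated ones, and the 2 genotypes overlapped. The change was 3.76-fold in wild type and 4.18-fold in the libraries labelled knockout (fitted log2 change 1.83, SE 0.066, limma adjusted p = 7.25e-10).

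Cyp51, the lanosterol demethylase that catalyses the first step after the ring system is closed, stood at 11.4 FPKM (wild type) and 11.3 FPKM (labelled knockout) without stimulation. It reached 34, 33.1, 31.9 and 30.2 FPKM in stimulated wild type compared with 30.4, 33.7, 35.2 and 34.45 FPKM in the labelled knockout group, which overlapped and lay far above the unstimulated pair (log2 change 1.45, SE 0.06, limma adjusted p = 2.15e-09). Idi1, which isomerises isopentenyl diphosphate, had the highest mean of the sterol enzymes after anti-IgM in both genotypes. Its unstimulated level was 20.5 FPKM (wild type) and 14.7 FPKM (labelled knockout). The stimulated levels were 52.04, 49.1, 52.7 and 43.5 FPKM in wild type compared with 43.97, 49.4, 49.45 and 52.4 FPKM in the labelled knockout group, overlapping groups that were again above both unstimulated libraries (log2 change 1.44, SE 0.10). Hmgcs1, which makes HMG-CoA at the entry of the mevalonate pathway, went from 21.05 and 21.5 FPKM to 38.8 to 46.65 FPKM over the 8 stimulated libraries, a log2 change of 1.0001 (SE 0.064). In GENCODE M21 a processed pseudogene, Gm13502, matches Idi1 over 684 bases without a mismatch, and Hmgcs1 shares 557 exonic bases with the antisense gene Gm48342. Mvd, the decarboxylase that ends the mevalonate steps, lay just outside the fold limit with a log2 change of 0.997 and levels of 3.48 and 4.4 FPKM before and 6.97 to 10.4 FPKM after stimulation.

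Smaller rises were called for 4 further enzymes. Fdps, farnesyl diphosphate synthase, changed by 0.54 on the log2 scale, Lss, which closes the ring to lanosterol, by 0.53, Sc5d, a late desaturase, by 0.40, and Hsd17b7, a ketoreductase of the demethylation steps, by 0.19. The exons of Fdps share 1124 bases with Gm43738 on the same strand in GENCODE M21. Processed pseudogenes also match Fdps, the closest being Gm3571 with 98.9% of 1062 bases. The call of Hsd17b7 was lost in 9 of 19 alternative analyses, among them those without either unstimulated library (adjusted p = 0.147 and 0.0869). Fdft1, squalene synthase, stands between Fdps and Sqle in the pathway and was not called, at 5.95 and 5.13 FPKM before and 4.91 to 6.35 FPKM after anti-IgM; it was called higher with median-of-ratios scaling (0.215, adjusted p = 0.0338) and quantile normalization (0.407, adjusted p = 0.00119). Its exons share 774 bases with Ctsb on the opposite strand in GENCODE M21. Whether the counting used strand is not given in the sources used here. A processed pseudogene, Gm6781, also matches Fdft1 with 97.4% of 1249 bases.

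The other 6 sterol enzymes called were lower after anti-IgM. Pmvk, phosphomevalonate kinase, stands between Hmgcs1 and Mvd. It went from 15.1 and 14.8 FPKM to 7.32, 8.01, 8.86 and 7.03 FPKM in wild type compared with 5.92, 7.42, 6.38 and 5.57 FPKM in the labelled knockout group, changing by -0.998 on the log2 scale (SE 0.10, limma adjusted p = 3.90e-06). Every stimulated library was below both unstimulated ones. Ebp, the sterol isomerase that shifts the ring double bond, moved the same way, with 16.6 and 14.3 FPKM before, 8.82, 8.14, 7.59 and 7.28 FPKM after anti-IgM in wild type and 6.7, 7.08, 7.06 and 6.12 FPKM in the libraries labelled knockout (log2 change -0.98, SE 0.073). Hmgcs1 and Pmvk thus started at 21.05 and 15.1 FPKM in unstimulated wild type and ended at means of 42.7 ± 2.77 and 7.805 ± 0.815 FPKM (SD, n = 4).

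Dhcr7, the last reductase before cholesterol, changed by -0.70 on the log2 scale, Nsdhl, a decarboxylase of the demethylation complex, by -0.52, and Acat2, which makes acetoacetyl-CoA, by -0.42. For Dhcr7 the change was -0.975 without the unstimulated wild-type library and -0.429 without the one labelled knockout. Short stretches of Dhcr7 also match many other transcripts in GENCODE M21, the longest being 227 bases of Tmem72 with 96.5% identity. The calls of Nsdhl and Acat2 were lost under quantile normalization (log2 changes -0.111 and -0.0732), and that of Acat2 also without the unstimulated library labelled knockout (-0.28, adjusted p = 0.0571). Acat2 shares 97.7% of 1477 aligned bases with its paralogue Acat3, so reads could be split between them. Mvk, mevalonate kinase, was low throughout, at 2.42 and 1.26 FPKM before and 0.81 to 1.84 FPKM after stimulation, and its fall (log2 change -0.41, limma adjusted p = 0.0484) was lost in 14 of 19 alternatives; without the unstimulated wild-type library it was -0.127 (adjusted p = 0.617). Tm7sf2, a sterol reductase, was at 1.64 and 1.09 FPKM before and 0.49 to 1.19 FPKM after.

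**Figure D2:**
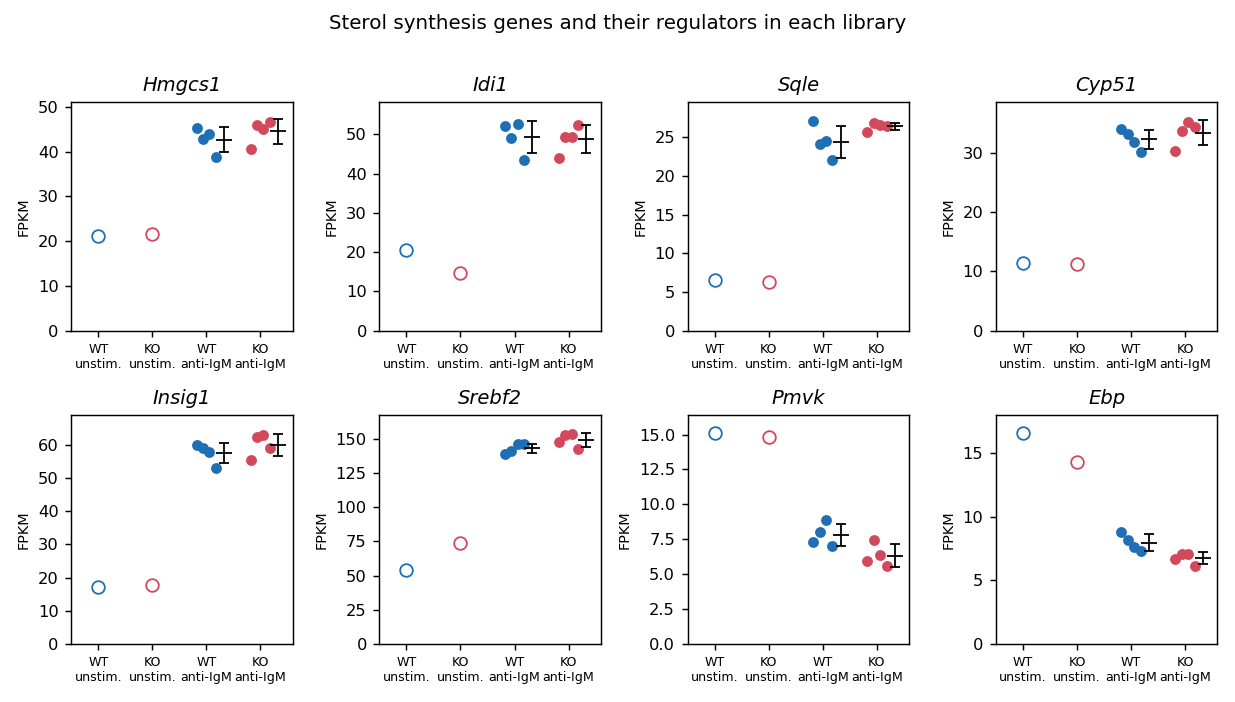
FPKM (vertical axes, from 0) of 6 sterol synthesis genes and 2 regulators in each library; open circles are single unstimulated libraries, filled circles stimulated libraries A to D, and bars the mean ± SD of 4. Hmgcs1, Idi1, Sqle, Cyp51, Insig1 and Srebf2 lie higher and Pmvk and Ebp lower in all 8 stimulated libraries than in both unstimulated ones.

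Promoter sequences were examined because genes of 1 pathway moved in opposite directions. RefSeq start sites on GRCm38.p6 were on hand for 27 of the 35 members, with windows from 250 bases before to 50 bases after the start, searched on both strands; Fdps, Fdft1, Sqle, Stard4, Scd1, Scd2, Fads1 and Abcg1 had none. A sterol regulatory element, the SREBP site (letters TCACNCCAC), was found in 1 of 27 members, Hmgcs1, beginning 137 bases before the start, against 1.44% of 27025 genes. The CCAAT box, the site of NF-Y, which acts with SREBP at many promoters, was found in 20 of 27 members and in 41.1% of all genes. It was in 13 of 14 sterol synthesis genes, 4 of 5 regulators, 2 of 5 fatty acid genes and 1 of 3 efflux genes. The NR4A monomer site NBRE (AAAGGTCA) and the LXR repeat DR4 (AGGTCA repeated after a gap of 4 bases) can overlap each other by their AGGTCA letters. Neither was in any of the 27 members, against 1.70% and 0.0148% of all genes. At shares this low, finding none in 27 genes says little. Only these exact letters were sought, so sites with other letters would be missed. A match describes letters only, and a window without one lacks those letters and nothing more can be read from it.

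The 180 bases before the start, in the direction of transcription, are shown for 4 sterol genes and for Fasn, Abca1 and Mylip, to set genes that rose (Hmgcs1, Idi1, Cyp51, Fasn) beside genes that fell (Ebp, Abca1, Mylip). Capitals mark exact matches to the letters of the sterol regulatory element (in Hmgcs1) and to CCAAT. The latter appears as ATTGG where it lies on the other strand, and in Fasn a CCAAT and an ATTGG overlap. Their GRCm38.p6 positions are chr13:119690171-119690350 (plus strand) for Hmgcs1, chr13:8885426-8885605 (plus) for Idi1, chr5:4104698-4104877 (minus) for Cyp51, chr11:120824548-120824727 (minus) for Fasn, chrX:8193513-8193692 (minus) for Ebp, chr4:53159896-53160075 (minus) for Abca1 and chr13:45389562-45389741 (plus) for Mylip.
Hmgcs1: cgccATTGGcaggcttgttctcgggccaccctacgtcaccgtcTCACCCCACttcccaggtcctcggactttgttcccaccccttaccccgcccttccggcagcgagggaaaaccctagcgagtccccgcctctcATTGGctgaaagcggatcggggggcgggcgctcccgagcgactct
Idi1: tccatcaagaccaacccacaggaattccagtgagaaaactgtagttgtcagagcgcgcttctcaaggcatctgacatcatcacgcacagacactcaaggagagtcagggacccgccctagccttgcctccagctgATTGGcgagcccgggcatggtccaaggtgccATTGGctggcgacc
Cyp51: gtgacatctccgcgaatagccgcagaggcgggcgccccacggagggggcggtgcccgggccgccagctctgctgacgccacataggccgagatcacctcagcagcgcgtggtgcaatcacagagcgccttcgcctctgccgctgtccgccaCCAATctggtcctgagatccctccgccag
Fasn: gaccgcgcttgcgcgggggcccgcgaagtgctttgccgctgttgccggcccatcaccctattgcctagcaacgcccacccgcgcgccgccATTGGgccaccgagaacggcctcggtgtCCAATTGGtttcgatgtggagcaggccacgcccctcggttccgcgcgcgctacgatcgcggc
Ebp: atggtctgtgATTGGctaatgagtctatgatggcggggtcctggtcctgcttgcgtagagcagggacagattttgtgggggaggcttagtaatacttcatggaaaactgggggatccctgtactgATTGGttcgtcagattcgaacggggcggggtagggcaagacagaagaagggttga
Abca1: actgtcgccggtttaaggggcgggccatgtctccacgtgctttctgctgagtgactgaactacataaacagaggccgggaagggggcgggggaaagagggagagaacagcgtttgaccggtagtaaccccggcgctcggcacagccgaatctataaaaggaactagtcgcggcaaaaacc
Mylip: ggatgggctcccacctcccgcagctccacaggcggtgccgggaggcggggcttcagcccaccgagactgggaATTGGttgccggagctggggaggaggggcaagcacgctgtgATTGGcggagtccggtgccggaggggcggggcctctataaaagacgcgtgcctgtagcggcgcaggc
CCAAT letters stood in the 4 stretches of genes that rose and also in those of Ebp and Mylip, which fell. The Abca1 stretch held none of the exact letters searched, and sites with other letters were not sought.

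Among the regulators, 5 of 6 were called higher and 1 lower, against 31.2% and 47.7% of all genes. The median log2 change was 0.50. Insig1, which retains Scap in the endoplasmic reticulum and is itself a target of SREBP2, had unstimulated levels of 17.2 and 17.8 FPKM. After anti-IgM its levels were 59.9, 59.05, 57.8 and 53.2 FPKM in wild type compared with 55.6, 62.4, 62.98 and 59.1 FPKM in the labelled knockout group (log2 change 1.69, SE 0.056, limma adjusted p = 4.30e-10). Insig2, its paralogue, moved the other way, from 14.7 and 14.75 FPKM to 6.89, 7.26, 7.61 and 7.26 FPKM in wild type compared with 8.74, 9.67, 7.91 and 8.18 FPKM in the labelled knockout group (log2 change -0.82, SE 0.076). Insig1 was thus 1.17 and 1.205 times Insig2 before stimulation and 6.36 to 8.70 times Insig2 in the 8 stimulated libraries.

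Srebf2, which encodes SREBP2, was the member with the second highest level after anti-IgM. It went from 53.8 FPKM in unstimulated wild type to 139, 142, 146 and 146 FPKM, and from 73.7 FPKM in the unstimulated library labelled knockout to 148, 153, 154 and 143 FPKM. The fitted log2 change was 1.202 (SE 0.071), and the genotypes overlapped after stimulation. Stard4, a carrier of sterol between membranes, changed by 0.64, Scap by 0.36 and Srebf1, which encodes the SREBP1 factors of fatty acid synthesis, by 0.26 on the log2 scale. Srebf1 and Scap were called in the fit of both genotypes, but without the unstimulated wild-type library their log2 changes were 0.105 (adjusted p = 0.192) and 0.113 (adjusted p = 0.0735).

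Of the 5 tested genes of the fatty acid branch 2 were called higher and 1 lower, against 31.2% and 47.7% of all genes. Fasn, fatty acid synthase, stood at 14.15 FPKM (wild type) and 20.8 FPKM (labelled knockout) before stimulation. It reached 71.1, 65.2, 69.2 and 68.85 FPKM in wild type compared with 72.3, 69.3, 70.7 and 69.1 FPKM in the labelled knockout group, with overlapping genotypes (log2 change 1.95, SE 0.085, limma adjusted p = 2.92e-09). Each against 1 unstimulated library, the rise was 4.85-fold in wild type and 3.38-fold in the labelled knockout group, and the difference between these responses was not tested.

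Acaca, acetyl-CoA carboxylase, which makes the malonyl-CoA that Fasn uses, changed by 0.42 on the log2 scale, from 6.04 and 7.33 FPKM to 8.24 to 9.88 FPKM. Without the unstimulated wild-type library it was 0.28, and without the one labelled knockout 0.562. A processed pseudogene, Gm5182, matches 99.2% of 6118 of its bases. Acly, which supplies cytosolic acetyl-CoA, was high before (49.4 and 62.8 FPKM) and after (58.2 to 66.35 FPKM) and was not called (log2 change 0.16, limma adjusted p = 0.0842). It was called higher under rescaling to a common sum (0.32, adjusted p = 0.015) and under median-of-ratios scaling (0.389, adjusted p = 0.000267), and without the unstimulated library labelled knockout (0.354, adjusted p = 0.000754).

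The stearoyl-CoA desaturases, which put the first double bond into saturated fatty acids, parted. Scd1 was the most abundant of the 35 members in all 10 libraries, at 309.9 FPKM (wild type) and 434 FPKM (labelled knockout) without stimulation and 342 to 409 FPKM after it, and it was not called on the deposited scale (log2 change 0.036, limma adjusted p = 0.575). It was called higher after rescaling to a common sum (0.2, adjusted p = 0.036) and with median-of-ratios scaling (0.271, adjusted p = 0.001). Its call depended on the unstimulated library used: without the wild-type one the change was -0.107 (adjusted p = 0.028), without the one labelled knockout 0.178 (adjusted p = 0.00189). Scd2 fell from 34.9 and 34.6 FPKM to 11.3, 10.7, 10.3 and 10.1 FPKM in wild type compared with 7.32, 8.57, 7.6 and 7.86 FPKM in the labelled knockout group (log2 change -1.82, SE 0.085, limma adjusted p = 4.93e-09). The 8 stimulated Scd2 values lay far under both unstimulated ones. Neither gene had another transcript of at least 95% identity over 200 bases in GENCODE M21. The elongase Elovl6 was at 0.9 and 0.62 FPKM before and 0.14 to 0.23 FPKM after anti-IgM, and the desaturases of polyunsaturated fatty acids Fads1 and Fads2 stayed between 0.03 and 1.02 FPKM in the 10 libraries.

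All 3 efflux and LXR target genes of this branch fell (47.7% of all genes were called lower), and the median log2 change of its 4 genes was -1.44. Of 5 further tested genes related to LXR and oxysterols, 2 were called higher and 2 lower, against 31.2% and 47.7% of all genes. Gpr183 (log2 change 1.82) and Lpcat3 (0.19) rose, and Apoe (-0.54) and Rxrb (-0.21) fell. Mylip, an LXR-induced ubiquitin ligase also called IDOL, showed the largest fall of all tested members. It stood at 81.6 FPKM (wild type) and 100 FPKM (labelled knockout) and dropped to 9.92, 10.4, 9 and 10.2 FPKM in wild type compared with 11.6, 10.9, 10.7 and 9.69 FPKM in the labelled knockout group, 8.26-fold and 9.32-fold lower (log2 change -3.02, SE 0.072, limma adjusted p = 5.78e-11). The stimulated genotypes overlapped, and none of their libraries came near the unstimulated pair.

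Abca1, which loads cholesterol onto apolipoprotein A-I, went from 79.2 FPKM (wild type) and 117 FPKM (labelled knockout) to 18.3, 20.6, 19.7 and 22.8 FPKM in stimulated wild type compared with 32.2, 28.3, 25.9 and 24.8 FPKM in the labelled knockout group. It was 3.896-fold and 4.2003-fold lower than in the unstimulated library of the same genotype (log2 change -1.98, SE 0.093). Abcg1, which exports cholesterol to HDL, went from 17.1 and 29.4 FPKM to 8.83, 9.67, 9.51 and 10.15 FPKM in wild type compared with 15.45, 13.9, 12.7 and 13.9 FPKM in the labelled knockout group (log2 change -0.90, SE 0.077). Nr1h2, which encodes LXRβ, was not called, at 42.35 and 50.8 FPKM before and 38.4 to 48.03 FPKM after stimulation (log2 change -0.068, limma adjusted p = 0.481).

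**Figure D3:**
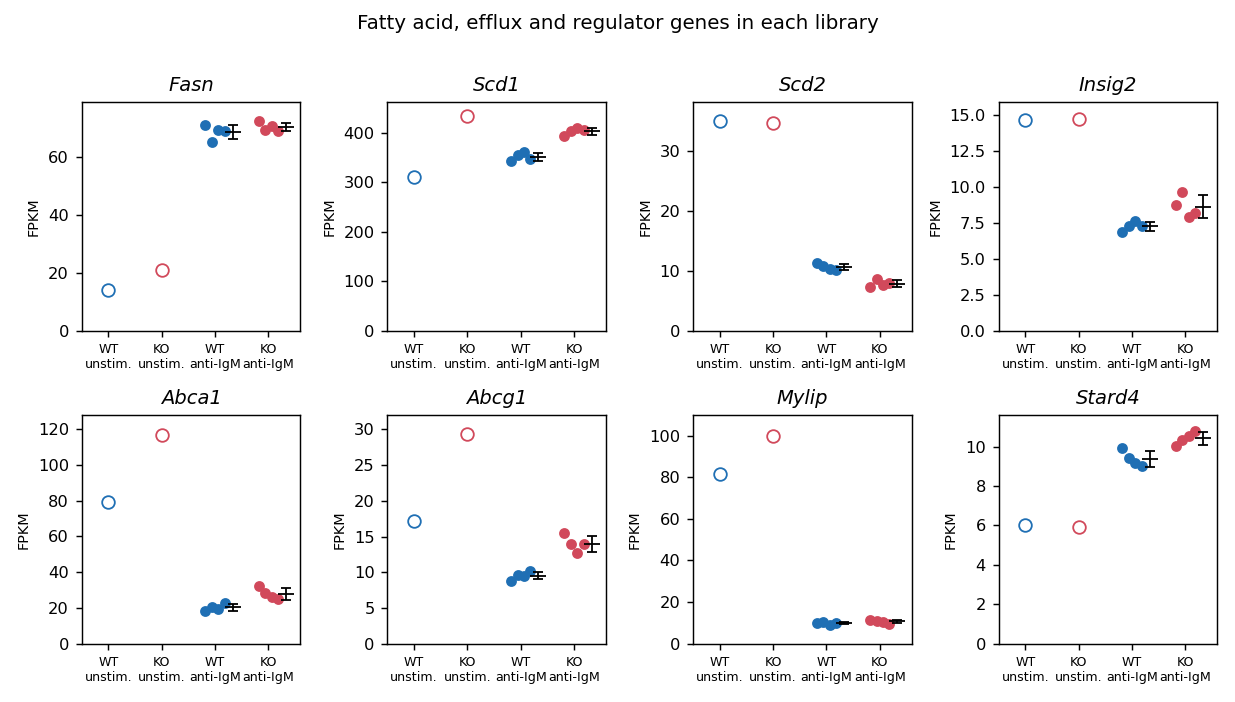
FPKM (vertical axes, from 0) of fatty acid, efflux and regulator genes in each library; open circles are single unstimulated libraries, filled circles stimulated libraries A to D, and bars the mean ± SD of 4. Scd2, Abca1, Abcg1, Mylip and Insig2 lie lower and Fasn and Stard4 higher after anti-IgM, and for Scd1, Scd2, Insig2, Abca1, Abcg1 and Stard4 the 4 and 4 stimulated libraries of the genotypes do not overlap.

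Of 45 further genes of these pathways, 43 were found and 37 were tested; 19 were called higher and 15 lower with anti-IgM (31.2% and 47.7% of all genes; 78.9% either way), with a median log2 change of 0.19. The largest rises reported here were those of Tmem97, a sterol-regulated membrane protein (log2 change 1.99), and Gpr183, the receptor for an oxysterol that guides B cells (1.82). The largest falls were those of Mlx (-1.03), a partner of the glucose-sensing factor ChREBP, the sterol esterifying enzyme Soat1 (-0.94), the sterol reductase Lbr (-0.94) and the acetyl-CoA synthetase Acss2 (-0.86).

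Each genotype had 1 unstimulated library, so the spread between unstimulated libraries of 1 genotype could not be measured. The split of calls moved with scaling: the share of called genes that were higher was 39.5% on the deposited scale, 49.0% after rescaling to a common sum, 53.8% with median-of-ratios scaling and 50.6% with quantile normalization, and the median change of all genes moved from -0.17 to -0.031, 0.035 and 0.004.

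Between the genotypes after anti-IgM, few members passed the test, a share near that of all genes. The exporters Abcg1 and Abca1 and the desaturase Scd1 were higher and the desaturase Scd2 was lower in the libraries labelled knockout. These 4 of 31 members were called (limma over the 8 stimulated libraries, adjusted p under 0.05), 3 higher and 1 lower (2 lower without library B labelled knockout), against 9.72% of all genes tested (3.91% higher and 5.81% lower), so nothing particular to the members is read from the count. With median-of-ratios scaling and with quantile normalization 5 were called higher, the same 3 with the regulators Insig2 and Stard4. For 7 members the genotypes did not overlap (15.5% of all genes): Abca1, Abcg1, Scd1, Insig2 and Stard4 lay higher in the labelled knockout group (5.96% of all genes) and Scd2 and Ebp lower (9.57%). The median difference was -0.033 over the members and -0.024 over all genes.

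**Figure D4:**
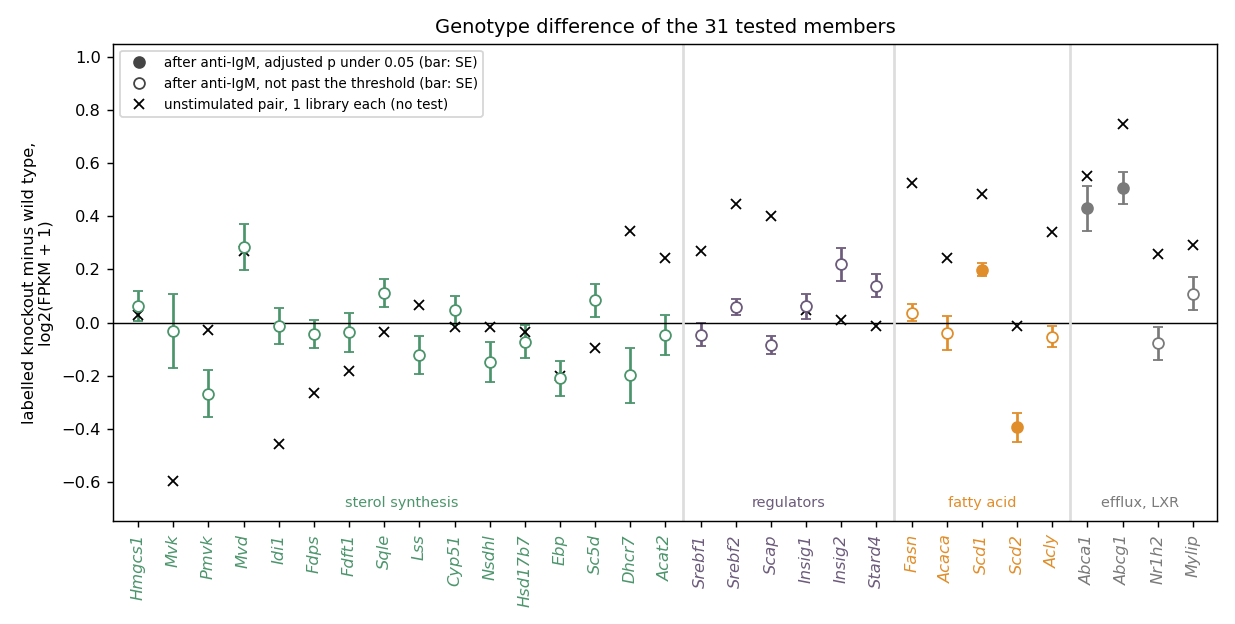
Genotype difference of each tested member (vertical axis, labelled knockout minus wild type, log2(FPKM + 1)); circles are the fit over 4 and 4 stimulated libraries with SE bars, filled where the adjusted p is under 0.05, and crosses the unstimulated pair of 1 library each. Only Scd1, Scd2, Abca1 and Abcg1 are filled, and the crosses of Abca1, Abcg1 and Scd1 lie on the same side of 0 as their circles while that of Scd2 lies near 0.

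Abcg1 showed the largest difference among the members. Its 4 stimulated wild-type libraries held 8.83 to 10.2 FPKM (9.54 ± 0.546, SD, n = 4) and the 4 labelled knockout 12.7 to 15.45 FPKM (13.998 ± 1.13, SD, n = 4), 1.47-fold higher (log2 difference 0.51, SE 0.061, limma adjusted p = 0.000767). In the unstimulated pair it was 1.72-fold higher in the library labelled knockout. Abca1 was 1.37-fold higher after stimulation, with 20.3 ± 1.88 FPKM in wild type compared with 27.8 ± 3.27 FPKM in the labelled knockout group (SD, n = 4), and 1.47-fold higher in the unstimulated pair (stimulated log2 difference 0.43, SE 0.086, limma adjusted p = 0.0121).

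For both exporters the groups did not overlap, and the highest value was that of library A labelled knockout. That library and B, together with wild-type B, held the most Lyz2 of the 8. Without these 3 libraries, an alternative chosen after seeing the data, the log2 difference of Abca1 was 0.315 and its call was lost (adjusted p = 0.124), whereas Abcg1 kept its call in each of 19 alternatives. The part of myeloid cells in the difference was not tested. Plasma cell markers summed to 29.65 to 36.97 FPKM in wild type and 35.01 to 50.66 FPKM in the labelled knockout group, with Prdm1 called higher; dendritic cell markers summed to 13.67 to 14.53 FPKM and 14.3 to 16.05 FPKM, with Zbtb46 called higher and Flt3 lower (exact permutation p = 0.0571 for each sum). The B cell marker Cd79b (-0.32) and the platelet gene Ppbp (-0.53) were called lower, and the part of these differences in those of the members was not tested. Mylip, the third LXR target of the efflux branch, did not pass the test (log2 difference 0.11, limma adjusted p = 0.351), nor did Nr1h2 (-0.078, adjusted p = 0.519).

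Scd1 and Scd2 differed in opposite directions. Scd1 was at 351 ± 8.18 FPKM in wild type compared with 403 ± 7.16 FPKM in the labelled knockout group (SD, n = 4), so the log2 difference was 0.20 (SE 0.024, limma adjusted p = 0.000767). The lowest stimulated library labelled knockout held 393 FPKM and the highest wild-type one 361 FPKM. Scd2 was at 10.6 ± 0.528 FPKM in wild type compared with 7.84 ± 0.536 FPKM in the labelled knockout group, 73.9% of wild type (log2 difference -0.39, SE 0.055, limma adjusted p = 0.00168). Its groups did not overlap either, with 8.57 FPKM as the highest value labelled knockout and 10.1 FPKM as the lowest in wild type. The unstimulated pair differed 1.4001-fold for Scd1 and held 34.9 and 34.6 FPKM of Scd2. Both calls held in each of 19 alternatives.

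The other enzymes of fatty acid synthesis did not pass the test: Fasn was at 68.6 ± 2.47 and 70.4 ± 1.47 FPKM (SD, n = 4; limma adjusted p = 0.533), Acaca at 9.41 ± 0.544 and 9.135 ± 0.802 FPKM (adjusted p = 0.777) and Acly at 63.4 ± 1.79 and 61.1 ± 3.59 FPKM (adjusted p = 0.512), wild type first.

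Among the regulators, 2 separated the 4 and 4 libraries, as 15.5% of all genes tested did, without passing the test on the deposited scale. Insig2 was at 6.89 to 7.61 FPKM in wild type and 7.91 to 9.67 FPKM in the libraries labelled knockout (log2 difference 0.22, SE 0.062, limma adjusted p = 0.0572). Stard4 was at 9 to 9.9 FPKM and 10.01 to 10.8 FPKM (0.14, SE 0.043, adjusted p = 0.0783). Both were called with median-of-ratios scaling (adjusted p = 0.0187 and 0.0325) and with quantile normalization (adjusted p = 0.0136 and 0.0286). For Srebf2, Srebf1, Scap and Insig1 the adjusted p lay between 0.159 for Scap and 0.598 for Srebf1.

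Of the 16 sterol synthesis enzymes tested, none was called, against 9.72% of all genes tested. An unadjusted p under 0.05 was reached by 3 (Mvd, Pmvk and Ebp), against 22.1% of all genes tested, a share near that background. Mvd was at 7.95 ± 1.14 FPKM in wild type compared with 9.85 ± 0.632 FPKM in the labelled knockout group (SD, n = 4; log2 difference 0.28, limma adjusted p = 0.0756). Pmvk was at 7.805 ± 0.815 and 6.32 ± 0.803 FPKM (-0.27, adjusted p = 0.105) and Ebp at 7.96 ± 0.676 and 6.74 ± 0.449 FPKM (-0.21, adjusted p = 0.0864). Ebp alone of the 16 had groups that did not overlap, against 15.5% of all genes tested. For 2 of these the call depended on 1 library: Mvd passed without wild-type library A (adjusted p = 0.0111) and Pmvk without library B labelled knockout (adjusted p = 0.0353). Among the sterol enzymes that rose after anti-IgM, the genotype difference on the log2 scale was 0.11 (SE 0.054) for Sqle, 0.047 (SE 0.052) for Cyp51, -0.015 (SE 0.068) for Idi1 and 0.062 (SE 0.056) for Hmgcs1, none of them past the test.

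Of the 37 further pathway genes tested, 3 were called with a higher level in the labelled knockout group and 1 with a lower level, against 3.91% and 5.81% of all genes (9.72% either way), a share near the background. Elovl5, an elongase of polyunsaturated fatty acids, was at 55.85 to 61.4 FPKM in wild type and 66.6 to 79.8 FPKM in the libraries labelled knockout (log2 difference 0.30, limma adjusted p = 0.00771). Soat1 (0.23, adjusted p = 0.0462) and Gpr183 (0.18, adjusted p = 0.00459) were the other two, and Tecr, a reductase of fatty acid elongation, was lower (-0.17, adjusted p = 0.0487).

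In the unstimulated pair, where 1 library of each genotype allows no test, 18 of the 31 tested members were higher in the library labelled knockout and 13 lower, and the median difference was 0.047 against 0.067 over all genes. Medians by branch were -0.031 for sterol synthesis, 0.16 for the regulators, 0.34 for the fatty acid genes and 0.42 for the efflux genes. After Abcg1 (0.75) and Abca1 (0.55), the largest positive differences were those of Fasn (0.53), Scd1 (0.48), Srebf2 (0.45) and Scap (0.40). Mvk (-0.60) and Idi1 (-0.46) differed most in the other direction. For Fasn, Srebf2 and Scap the log2 differences between the stimulated groups were 0.037, 0.059 and -0.085. Whether the genotypes differ in these responses was not tested.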

How the data were processed

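Transcript levels came from 1 table in which the authors deposited FPKM, estimated per gene and given to 2 decimals, for 17658 genes in 10 libraries; per the submitters' processing notes the tools were STAR 2.4 and RSEM 1.2.14 with build mm10. Libraries were made with a kit for stranded mRNA, per the labels' protocols. Which annotation and filters were used, and whether strand was, is not given in the sources used here. Of the value columns, 0 belonged to samples of another series.

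The values were transformed as log2(FPKM + 1), and the 10225 genes averaging 1 FPKM or more were tested, two-sided, with limma 3.58.1 (R 4.3.3; lmFit and eBayes with intensity trend) and Benjamini-Hochberg adjustment over all of them. The anti-IgM fit used the 10 libraries with genotype as a term, and the genotype fit the 8 stimulated libraries. The fits were tested on simulated data. Single values were compared by an exact permutation test over 70 labellings, whose smallest p is 0.0286. Absolute depth is unknown; relative depth was recovered from the whole-read steps in the FPKM of 53 of 139 low genes, and ranged from 0.906 to 1.07.

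Members, lists and tests were chosen with earlier results of these data known. Every member is named, Nr4a1 first as a check of the labels, and of the further pathway genes at most 4 called in each direction per comparison, those with the largest change; some genes that meet this rule are left out of the text. Older symbols were matched for Sc4mol (Msmo1) and Ptplad1 (Hacd3); Thrsp and Cyp7b1 were not used here. Near-identical copies were sought with minimap2 2.31-r1302 in GENCODE M21, and promoters came from RefSeq on GRCm38.p6. Alternatives were a pseudocount of 0.1 or 5, dropping the filter or raising it to 5 FPKM, rescaling to a common sum (TPM), median-of-ratios and quantile scaling, eBayes without trend, all 10 libraries in the genotype fit, no genotype term, the letter as a block, each library left out, and, added later, the 3 libraries with the most Lyz2 left out.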

Additional observations from a re-analysis of the deposited data

Results flagged for a closer look

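Of 62 groups of 4 stimulated libraries examined over the 31 tested members, 1 held a value set far apart from the other three: Dhcr7 stood at 3.35 FPKM in library B labelled knockout, and at 2.37 to 2.51 FPKM in the others. Chance gives about 1 such group in 20, or 3.1 of 62.

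Scd1 and Nr1h2 lay on opposite sides of their unstimulated library in the 2 genotypes. For Scd1 the log2 change with anti-IgM was 0.178 in wild type but -0.107 in the labelled knockout group, and for Nr1h2 it was 0.0997 and -0.235, with each stimulated library of a genotype on the same side. The difference was not tested, since each genotype had 1 unstimulated library. With median-of-ratios scaling all 4 changes were positive, 0.383 and 0.160 for Scd1 and 0.300 and 0.027 for Nr1h2. After rescaling to a common sum they were 0.430 and -0.031 for Scd1 and 0.349 and -0.162 for Nr1h2, and with quantile normalization 0.068 and -0.304 for Scd1 and -0.011 and -0.277 for Nr1h2.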

How the results depend on the processing

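The counts of members and genes called with anti-IgM stayed within 1.5 times of the reported ones, with 2 exceptions. Members called lower by a log2 change of at least 1 numbered 5 with a pseudocount of 0.1, and 3 to 4 with 1 stimulated library left out. Without the unstimulated wild-type library the falls of Pmvk (-1.12) and Abcg1 (-1.02) also went past that limit. Genes called by a log2 change of at least 1 in either direction numbered 1132 with a pseudocount of 5, against 2078 with the pseudocount of 1. Between the genotypes, members called higher numbered 5 with median-of-ratios scaling and with quantile normalization, members called lower 1 to 2 with 1 library left out (2 without library B labelled knockout), and genes called 444 without the 3 libraries highest in Lyz2, a fit with fewer libraries. The share of genotype calls that were higher was 40.2% as deposited, 44.2% after rescaling to a common sum, 59.7% with median-of-ratios scaling and 52.2% with quantile normalization. The letters mark no shared source in the labels, and same-letter libraries did not deviate together. Their correlations were -0.122 to 0.045, against -0.087 to 0.122 between libraries of different letters. With the letter as a replicate block, 7118 genes were called with anti-IgM and 740 between the genotypes, the log2 difference of Abca1 stayed at 0.43 while its call was lost (adjusted p = 0.0522), and Mvk, Hsd17b7 and Srebf1 lost their anti-IgM calls. Signs turned only for changes that were not called as deposited: with anti-IgM for Nr1h2 (common sum 0.0935, median-of-ratios 0.163, replicate block 0.00928), Scd1 (quantile -0.118, replicate block -0.000191), and, with libraries left out, Scd1 (-0.107 to 0.178), Acly (-0.0404 to 0.354), Fdft1 (-0.0546 to 0.0892) and Nr1h2 (-0.235 to 0.0997); between the genotypes for Idi1 (median-of-ratios 0.0278, highest Lyz2 left out 0.0468), Fdps (highest Lyz2 left out 0.0248), Mvk, Fdft1, Acat2 and Acaca (quantile 0.0181, 0.00666, 0.00453 and 0.00468), and, with libraries left out, Mvk (-0.109 to 0.108), Idi1 (-0.0726 to 0.0333), Fdps (-0.0749 to 0.00542), Fdft1 (-0.0702 to 0.00992) and Acaca (-0.0765 to 0.00314). The cause of these shifts was not tested. Without counts, counting error could not be separated from other spread between libraries.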

Other observations

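Ratios within a library, chosen after the values were seen and given without a test, set paired members side by side. Scd1 over Scd2 was 8.88 and 12.5 in the unstimulated wild-type library and the one labelled knockout, 30.3 to 34.9 in stimulated wild type and 47.1 to 53.9 in the stimulated libraries labelled knockout. Insig1 over Insig2 was 1.17 and 1.205 before stimulation, and 7.33 to 8.70 and 6.36 to 7.96 after it. Srebf2 over Srebf1 was 4.57 and 5.11 before and 8.53 to 9.44 and 9.13 to 10.0 after. Sqle over Ebp went from 0.391 and 0.441 to 2.96 to 3.23 in wild type and 3.77 to 4.32 in the libraries labelled knockout. Fasn over Abca1 was 0.179 and 0.178 before, and 3.02 to 3.88 in wild type and 2.25 to 2.79 in the libraries labelled knockout after anti-IgM. The stimulated genotypes overlapped for the Insig and Srebf ratios and not for the other three.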
